A study of Mus musculus with 4 samples.

Results

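The 35 genes described here belong to glycolysis and to the response of cells to low oxygen. They were taken by symbol from a given list, not by a cutoff on their values, but the list was chosen with earlier results of these data known. All 35 were found among the 32285 genes of the count matrices. Aldoa stood on 2 rows, and the row with the larger total was used. By role they comprise 3 glucose and lactate transporters, 9 genes of upper glycolysis, 2 regulators of fructose 2,6-bisphosphate, 6 genes of lower glycolysis through lactate dehydrogenase, 3 oxygen-sensing genes and 12 genes known as hypoxia targets. All are protein-coding genes of the mouse, on 15 chromosomes.

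The study profiled single cells from MC38b tumours engrafted in mice and collected a day after the second dose of treatment. It gave 4 libraries from the 10x Genomics droplet method, which counts messenger RNA molecules by unique molecular identifiers (UMIs): 2 from mice given saline (PBS), 1 from mice given an antibody against PD-1, and 1 from mice given that antibody together with an antibody against TL1A, a cytokine of the TNF family. The mouse strain, sex and age are not stated in the labels used here. Live cells were sorted into CD45+CD3+, CD45+CD3- and CD45-CD3- fractions and mixed again at 9:9:2, so the share of each fraction in a library was set by the sort. The labels give n = 2 biological replicates for saline and n = 4 for treatment, pooled before sorting. They do not say which mice are in which library, so a PBS and a treated library may hold unlike numbers of mice. Each treated group is therefore 1 library. The p-values for treatment set its difference from PBS against a spread for which only the 2 PBS libraries are replicates. That spread may be technical. Setting 1 treated library against the other tells of those libraries rather than of the treatments.

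Glycolysis turns glucose into pyruvate in the cytosol, and lactate dehydrogenase and the lactate exporter Slc16a3 (MCT4) carry its product out of the cell. When oxygen is scarce, the prolyl hydroxylases encoded by Egln1 and Egln3 no longer mark the transcription factor subunit HIF-1alpha (Hif1a) for breakdown, and the stabilised factor binds short elements with the core ACGTG or GCGTG beside glycolytic genes and other targets. Among those targets are Vegfa, which drives vessel growth, Bnip3 and Bnip3l, which act in mitophagy, P4ha1 and P4ha2, which hydroxylate collagen, and Ero1l, an oxidase of the endoplasmic reticulum that forms disulfide bonds. In tumours, cancer cells, stromal cells and infiltrating leukocytes can all use these genes.

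The promoters of 5 of the genes whose levels are described below are shown for these cores. Each line holds the 250 bases before the RefSeq start of the gene (build GRCm38.p6), 5′ to 3′ on the gene's strand, with every ACGTG and GCGTG on either strand in capitals (their reverse complements are CACGT and CACGC, and in CACGTG the matches on the 2 strands overlap). P4ha1 (chr10:59323046-59323295, plus strand), P4ha2 (chr11:54100674-54100923, plus strand), Hk2 (chr6:82774455-82774704, minus strand) and Egln3 (chr12:54203875-54204124, minus strand) hold at least 1 match, and Mif (chr10:75860278-75860527, minus strand) holds none.
P4ha1: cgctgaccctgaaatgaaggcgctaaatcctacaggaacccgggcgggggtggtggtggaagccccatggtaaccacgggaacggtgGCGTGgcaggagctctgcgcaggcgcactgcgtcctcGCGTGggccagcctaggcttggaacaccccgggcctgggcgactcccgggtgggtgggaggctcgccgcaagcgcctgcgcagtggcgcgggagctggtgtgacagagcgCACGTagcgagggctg
P4ha2: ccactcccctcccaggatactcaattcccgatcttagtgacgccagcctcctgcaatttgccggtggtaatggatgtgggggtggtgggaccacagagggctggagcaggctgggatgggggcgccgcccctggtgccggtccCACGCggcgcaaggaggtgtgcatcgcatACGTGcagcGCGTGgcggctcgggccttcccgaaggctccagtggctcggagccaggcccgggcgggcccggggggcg
Hk2: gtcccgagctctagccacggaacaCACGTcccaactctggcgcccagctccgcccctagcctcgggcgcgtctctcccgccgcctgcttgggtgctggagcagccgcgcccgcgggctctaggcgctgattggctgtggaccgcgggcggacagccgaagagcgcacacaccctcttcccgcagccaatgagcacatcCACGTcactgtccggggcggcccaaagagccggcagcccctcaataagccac
Egln3: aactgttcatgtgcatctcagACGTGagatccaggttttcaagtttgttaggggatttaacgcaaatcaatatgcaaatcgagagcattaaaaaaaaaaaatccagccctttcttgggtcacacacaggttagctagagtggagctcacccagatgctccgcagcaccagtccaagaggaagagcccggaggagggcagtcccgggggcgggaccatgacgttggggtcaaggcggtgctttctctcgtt
Mif: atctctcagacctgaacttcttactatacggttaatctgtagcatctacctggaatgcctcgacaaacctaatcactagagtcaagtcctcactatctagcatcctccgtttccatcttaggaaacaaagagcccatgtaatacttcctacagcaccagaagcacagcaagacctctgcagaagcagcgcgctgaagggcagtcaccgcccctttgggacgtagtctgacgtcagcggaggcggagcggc

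A RefSeq promoter window, from 250 bases before to 50 after a start, was at hand for 31 of the 35 genes, with 44 windows in all. ACGTG lay on either strand in 61.4% of these windows, against 19.6% of the 32851 windows of all genes in the table. GCGTG lay in 56.8% of them, against 32.4%, and either core in 84.1%, against 43.8%. The cores were not particular to these genes. In windows of other hypoxia genes, a further list used below, ACGTG lay in 38.5%, GCGTG in 61.5% and either core in 76.9%. For other glycolysis and pyruvate genes the shares were 28.3%, 45.7% and 58.7%. By gene, 24 of the 31 (77.4%) had ACGTG in a window, against 21.8% of 27025 genes. A match describes the letters in the window and does not show that a factor binds there.

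The libraries held 6448 to 13231 cell barcodes and 78648222 to 142600208 UMIs, with a median of 3588 UMIs per barcode in the anti-PD-1 library and of 7098 to 7798 in the other 3. Barcodes were shared between libraries: 673 between the PBS libraries, 1255 and 1778 between the anti-PD-1 library and each PBS library, and 21 to 39 between the combination library and each other one. In all, 2447 barcodes lay in more than 1 library, and the lower copy held a median of 2.38% of the UMIs of the higher one. Most CD45-negative cells used here carried such a barcode in the PBS libraries (346 of 348 and 157 of 159) and fewer in the treated ones (87 of 305 and 1 of 506), nearly all as the higher copy: 10 of the anti-PD-1 cells and 0 in the other 3 libraries were lower copies. The counts for each class are given below also without the lower copies, and the treatment counts, where at least 50 cells per library remained, without both copies.

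Levels were summed over 4 cell classes in each library and are in CPM, the UMI count of a gene scaled to the total of all genes, after TMM scaling unless said otherwise. The classes held 348 and 159 CD45-negative cells in the PBS libraries, 305 with anti-PD-1 and 506 with the combination, with 800, 676, 1169 and 1034 monocytes and macrophages, 135, 191, 138 and 177 neutrophils, and 2996, 2667, 4526 and 5281 T cells in the same order. Clusters were built without these genes, so that the genes did not make the classes. The sort labels the CD45-negative fraction as tumour and stromal cells. The 6 epithelial markers checked (Krt8, Krt18, Krt19, Krt20, Epcam and Cdh1) summed to only 0.640 to 0.915 CPM there, with Krt19 at 0 in all libraries, while 7 fibroblast markers summed to 1982 to 3427 CPM. The cells are therefore called CD45-negative, not tumour, cells.

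Across the cell classes the genes were spread unevenly, and the neutrophils and the T cells lay at the 2 ends. Relative to monocytes and macrophages, 16 of the 35 were higher and 4 lower in neutrophils, 3 higher and 26 lower in T cells, and 11 higher and 14 lower in CD45-negative cells (edgeR on 16 class sums with library as a block, Benjamini-Hochberg adjusted p under 0.05). Most genes differ between cell classes, so these counts have to be read against all genes tested: 57.1% of the 35 passed in neutrophils beside 51.4% of all genes (19.3% higher and 32% lower), 82.9% in T cells beside 73.5% (38.7% higher and 34.7% lower), and 71.4% in CD45-negative cells beside 82.8% (42.9% higher and 39.9% lower). After thinning the sums to equal depth, 21 genes were higher and 1 lower in neutrophils, and 3 higher and 11 lower in CD45-negative cells. The direction differed more than the number: the median log2 difference of the 35 genes was 0.25 in neutrophils, where that of all genes was -0.55, and -1.01 in T cells, where it was 0.09. One of the 4 lower genes of neutrophils is Pfkm, the muscle phosphofructokinase, with 0 UMIs there in every library, which allows up to 1.69 CPM over the group at a floor of 3 counts.

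**Figure D1:**
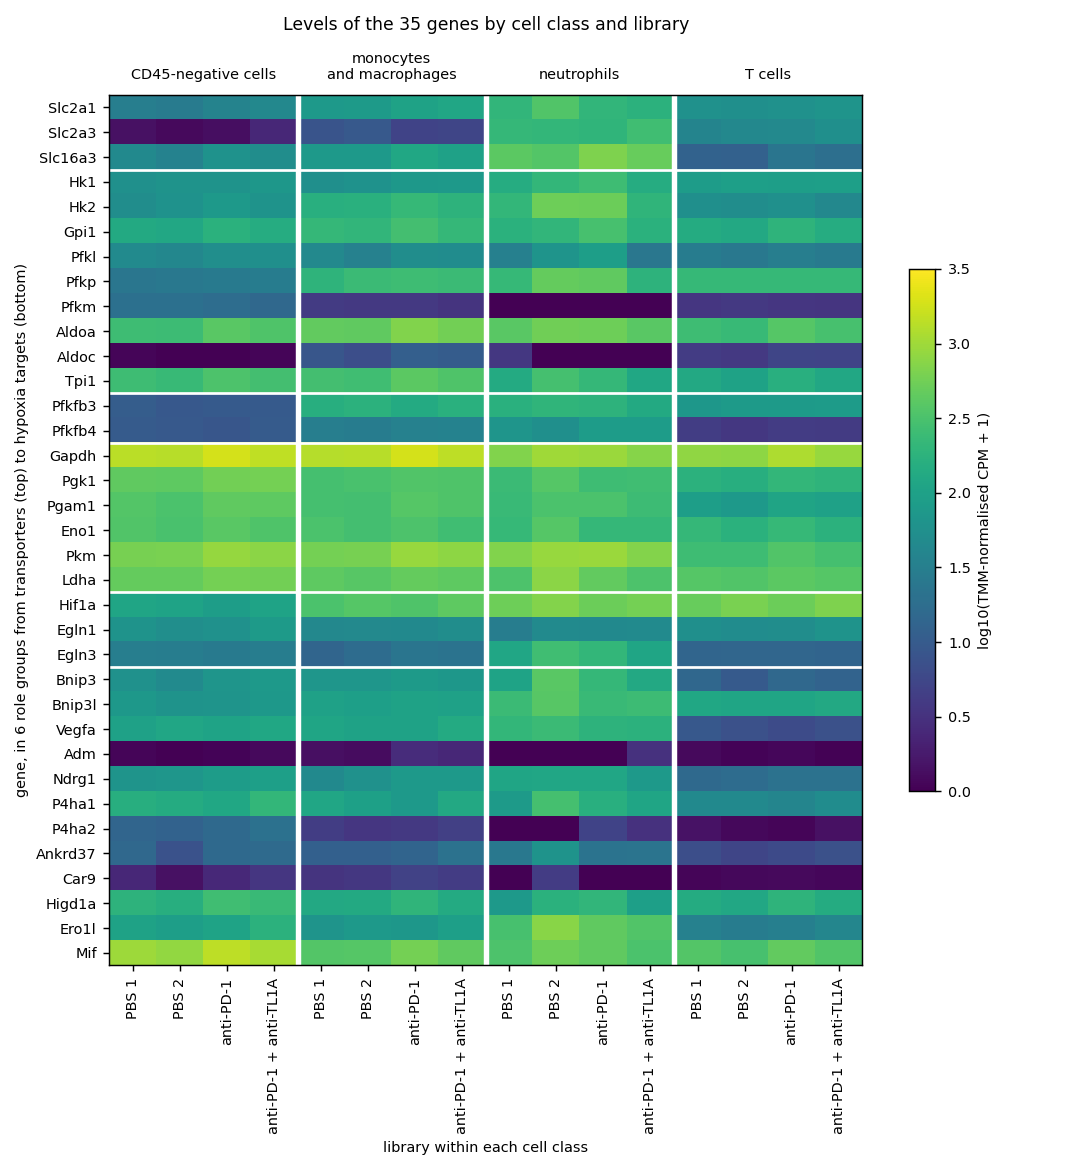
Heat map of the level of each of the 35 genes (rows, in 6 role groups) in each library (columns) of each cell class, coloured by log10 of the TMM-normalised CPM plus 1. The neutrophil columns are brightest for Slc2a3, Egln3 and Ero1l, and the T cell columns are dark for P4ha2, Car9 and Vegfa.

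The transporters divided the classes most plainly. Slc2a3, the neuronal-type glucose transporter GLUT3, had 208 and 202 CPM (not TMM-scaled) in neutrophils of the PBS libraries, 179 with anti-PD-1 and 265 with the combination, against 3.81 to 8.79 in monocytes and macrophages. Its log2 difference from monocytes and macrophages was 5.25 ± 0.29 (SE, adjusted p = 1.96e-09) in neutrophils and 2.72 ± 0.23 (adjusted p = 8.70e-08) in T cells. Slc16a3 was higher in neutrophils, by 2.43 ± 0.10 on the log2 scale, and lower in T cells, by a log2 difference of -2.71 ± 0.09. Slc2a1, the widespread glucose transporter GLUT1, was higher in neutrophils (1.45 ± 0.23) and lower in CD45-negative cells (-1.50 ± 0.18). In the differences of Slc2a3 and Slc16a3 the highest library of the lower class stayed below the lowest library of the higher class.

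Among the enzymes, the phosphofructokinases were used differently by class. Pfkm was higher in CD45-negative cells than in monocytes and macrophages by 2.58 ± 0.15 on the log2 scale, with 14.0 to 18.5 CPM against 2.38 to 3.02 (each class scaled on its own). Pfkp, the platelet-type enzyme, was lower there by a log2 difference of -3.22 ± 0.18, with 23.0 to 28.4 CPM against 189 to 261. Pfkfb3, whose product fructose 2,6-bisphosphate activates phosphofructokinase, was lower there too, at -4.17 ± 0.10. Gapdh and Pkm of lower glycolysis did not pass the test in CD45-negative cells, at -0.01 ± 0.09 and -0.03 ± 0.09. In T cells 5 of the 6 lower glycolysis genes were lower, and Ldha was at -0.31 ± 0.20.

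The hypoxia targets are to be read against the same shares of all genes. In T cells 10 of the 12 were lower than in monocytes and macrophages and none was higher, with Vegfa at -4.26 ± 0.11 and P4ha2 at -3.40 ± 0.28 on the log2 scale. In neutrophils 6 of the 12 were higher, among them Ero1l by 2.72 ± 0.31 and Bnip3 by 1.75 ± 0.40. Most neutrophil UMIs of both genes came from a cluster led by Cxcl3, with 204 of the 641 cells. By library it gave 74.5% to 95.5% of them for Ero1l and 59.0% to 92.0% for Bnip3. In CD45-negative cells 6 were higher, among them P4ha2 by 2.20 ± 0.17 and Mif, a cytokine and tautomerase, by 1.26 ± 0.12, and 3 were lower. That is 75% of the targets called in CD45-negative cells, beside 82.8% of all genes, and 50% in neutrophils, beside 51.4%. Hif1a itself was lower in CD45-negative cells (-1.85 ± 0.09) and higher in T cells (0.51 ± 0.09) and neutrophils (0.75 ± 0.10). Egln3 was higher in neutrophils by 3.38 ± 0.25, with 64.0% to 80.7% of its UMIs there in the Cxcl3-led cluster. With the lower copies of shared barcodes left out, 25, 18 and 29 of the genes passed in CD45-negative cells, neutrophils and T cells.

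In CD45-negative cells, either treated library had higher levels of 8 of the genes than the PBS pair. In the anti-PD-1 library these were mainly enzymes: Hk2, Gpi1, Aldoa and Tpi1 of upper glycolysis, Pkm of lower glycolysis, the lactate exporter Slc16a3, and of the hypoxia targets Higd1a, a mitochondrial inner membrane protein, and Mif. In the combination library they were mainly hypoxia targets: Bnip3, Higd1a, P4ha1, P4ha2, Ero1l and Ndrg1, with Slc2a1 and Egln1, and 0 of the 8 upper and 6 lower glycolysis genes tested. Of the 33 genes that passed the filter on low counts, 24.2% passed in each comparison, all higher. Of all genes tested, 5.19% passed with anti-PD-1 (2.76% higher and 2.44% lower) and 3.23% with the combination (1.78% higher and 1.45% lower). Both comparisons share the PBS libraries. The 2 lists tell which genes passed in each, and do not show that the enzymes differed between the treated libraries. Between those, only Ero1l, P4ha1 and Egln1 passed. The 6 lower glycolysis genes summed to 3610 and 3642 CPM (not TMM-scaled) in the PBS libraries. The sum was 4494 CPM with anti-PD-1 and 4143 with the combination.

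Aldoa, which splits fructose 1,6-bisphosphate, had 262 and 250 CPM in the PBS libraries, 400 with anti-PD-1 and 346 with the combination. Its log2 fold change over PBS was 0.64 ± 0.15 (SE, edgeR quasi-likelihood test, adjusted p = 0.00158) with anti-PD-1 and 0.43 ± 0.15 (adjusted p = 0.0863) with the combination. Both treated libraries lay above the PBS pair. Pkm, pyruvate kinase, had 610 and 619 CPM in the PBS libraries, 880 with anti-PD-1 and 775 with the combination, and rose by 0.52 ± 0.16 with anti-PD-1 (adjusted p = 0.0389). Mif had 966 and 867 CPM in the PBS libraries, 1406 with anti-PD-1 and 1093 with the combination, and rose by 0.62 ± 0.17 with anti-PD-1 (adjusted p = 0.0127). For Pkm and Mif, too, the anti-PD-1 library was the highest of the 4. Slc16a3 rose by 0.59 ± 0.13 with anti-PD-1, from 44.6 and 34.98 to 60.5 CPM, and Hk2, the inducible hexokinase, by 0.44 ± 0.13, from 51.1 and 60.5 to 75.3 CPM. Tpi1 rose by 0.46 ± 0.15 and Gpi1 by 0.43 ± 0.13. Higd1a rose in both treated libraries, from 181 and 156 to 266 CPM with anti-PD-1 (0.66 ± 0.14, adjusted p = 0.000494) and to 234 CPM with the combination (0.47 ± 0.14, adjusted p = 0.0308).

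Ero1l was the gene of this list with the smallest adjusted p in the combination library. It had 102 and 91.7 CPM in the PBS libraries, 105 with anti-PD-1 and 177 with the combination, a log2 fold change of 0.87 ± 0.13 over PBS (adjusted p = 3.72e-08) and of 0.75 ± 0.15 over the anti-PD-1 library (adjusted p = 0.000269). The combination library stood above the other 3. P4ha1 had 156 and 140 CPM in the PBS libraries, 119 with anti-PD-1 and 209 with the combination. It rose by 0.49 ± 0.13 over PBS (adjusted p = 0.0128) and by 0.81 ± 0.16 over the anti-PD-1 library (adjusted p = 0.000129), whose own value lay below both PBS libraries (-0.32 ± 0.14, adjusted p = 0.178). Egln1 was the third gene that passed between the 2 treated libraries, at 58.0 CPM with anti-PD-1 and 79.8 with the combination (0.46 ± 0.15, adjusted p = 0.0491). Those 3 are 9.09% of the 33 genes tested, beside 3.94% of all genes (2.51% higher and 1.43% lower).

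The other genes that rose with the combination moved by like amounts. Slc2a1 went from 30.0 and 27.5 CPM in the PBS libraries to 42.4 (0.56 ± 0.13), and stood at 35.9 with anti-PD-1. P4ha2 went from 13.0 and 11.8 to 18.9 (0.60 ± 0.16), Ndrg1, a stress-responsive gene, from 63.2 and 68.2 to 94.8 (0.53 ± 0.12), and Bnip3 from 57.6 and 46.1 to 74.6 (0.52 ± 0.12). For each of these 4 genes the anti-PD-1 library lay between the PBS pair and the combination library. Vegfa, with 101 and 116 CPM in the PBS libraries, 106 with anti-PD-1 and 120 with the combination, and Hif1a, with 113, 105, 88.0 and 108, passed in neither comparison. The genes that did not pass ranged from -0.32 (P4ha1) to 0.56 (Car9) with anti-PD-1 and from -0.39 (Pfkm) to 2.02 (Slc2a3) with the combination, on the log2 scale. Aldoc and Adm, with 7 and 12 UMIs in the class, did not pass the filter.

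Counted by position alone, 22 of the 33 genes lay above both PBS libraries with anti-PD-1 and 5 below both, and 28 above and 1 below with the combination. The median log2 fold change of the 33 was 0.32 with anti-PD-1, where that of all genes was -0.02, and 0.31 with the combination, where it was -0.01. The 7 fibroblast markers summed to 3427 and 2923 CPM in the PBS libraries, 1982 with anti-PD-1 and 2268 with the combination, and ribosomal protein genes took 21.9%, 20.4%, 24.8% and 21.1% of the UMIs. The median UMIs per cell were 68449 and 79920, 46962 and 64723 in the same order. The part of any of these in the result was not tested. Leaving out the lower copies of shared barcodes kept all 8, 8 and 3 genes. Leaving out both copies left 2 cells in each PBS library and could not be fitted. DESeq2 called 1 gene, Ero1l, for the combination in place of 8.

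**Figure D2:**
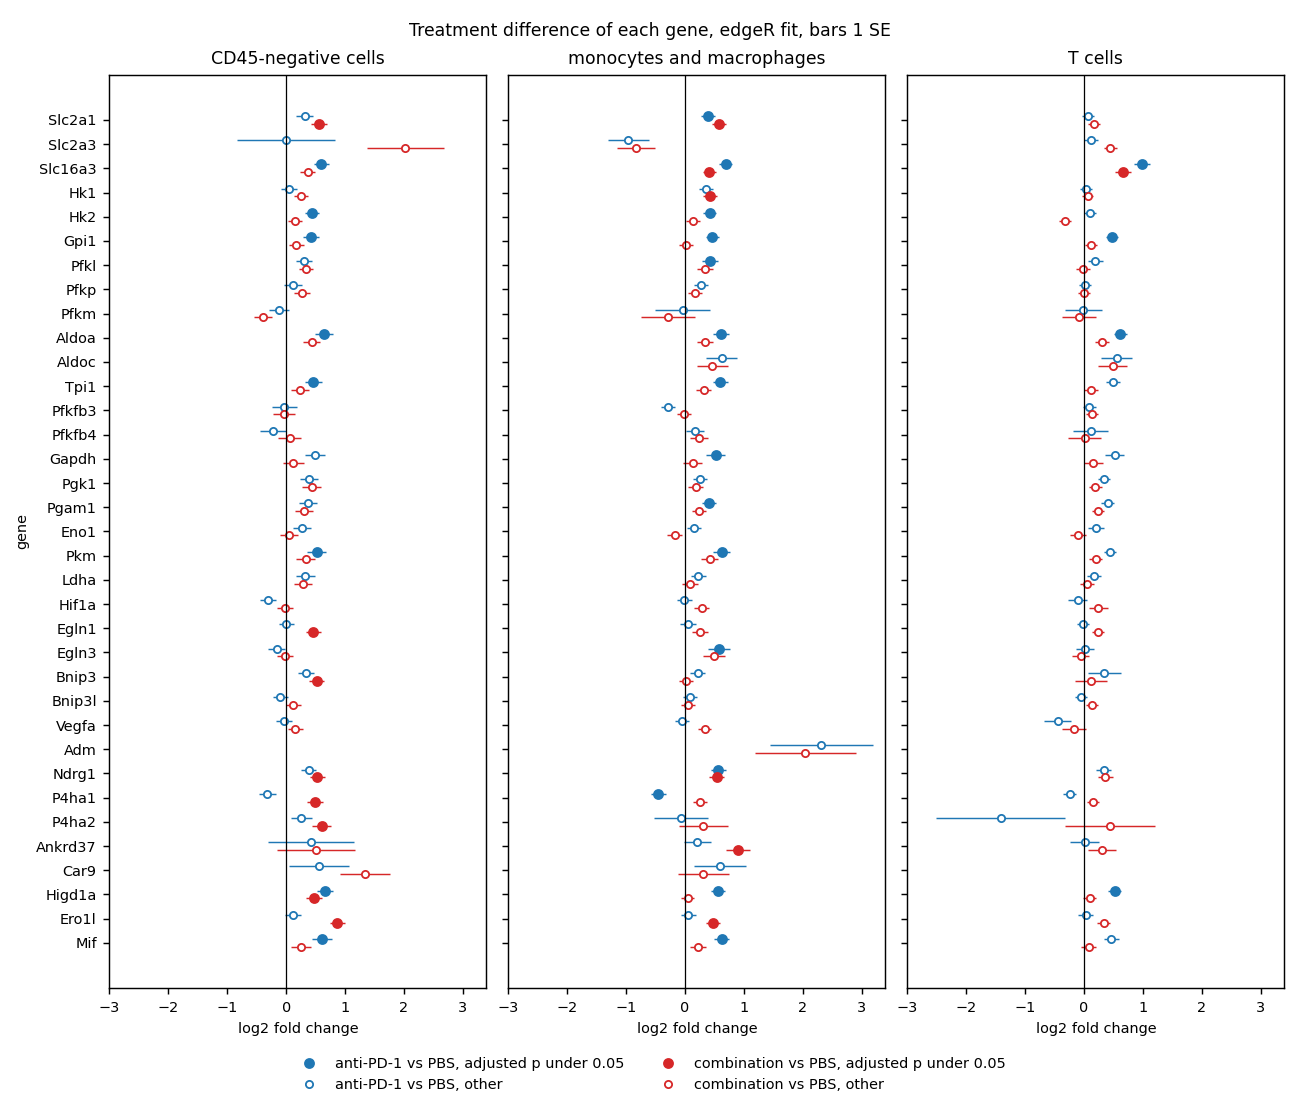
Log2 fold change of each of the 35 genes (rows) over the PBS libraries, with anti-PD-1 and with the combination, in 3 cell classes (panels; neutrophils are not drawn), from the edgeR fit, with bars of 1 SE. Filled points passed the test, and genes that did not pass the filter on low counts have no point. Most points of CD45-negative cells and of monocytes and macrophages lie to the right of 0.

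Within the CD45-negative cells, more of the genes passed in the clusters with collagen than in those with little. The 4 clusters divided into 2 with little collagen (Col1a1, Col1a2 and Col3a1 summing to under 1000 CPM) and 2 with more, and the collagen-high clusters held 54.3%, 52.2%, 51.5% and 49.0% of the class in the 2 PBS, the anti-PD-1 and the combination libraries. In the collagen-high clusters alone 13 of 32 genes rose with anti-PD-1 and 14 of 32 with the combination, beside 4.59% and 2.27% of all genes called, and in the collagen-low clusters 0 of 32 in either, beside 0.871% and 0.724%. Without the lower copies of shared barcodes the counts were again 13 and 14, and 0 and 0. That contrast of counts is not itself a test, so the difference between the 2 kinds of cluster was fitted, a test added after the counts had been seen. One gene, Ero1l, passed it: its log2 fold change with the combination was larger in collagen-high clusters by 0.83 ± 0.16 (edgeR with library as a block, adjusted p = 0.0236). With anti-PD-1, 0 of 33 passed, with 8 at an unadjusted p under 0.05. Of all genes tested, 0.204% passed for the combination and 0.592% for anti-PD-1. For the combination 30 of the 33 differences were positive, with a median of 0.33 beside 0.01 for all genes, and 20 had an unadjusted p under 0.05. Ero1l alone also passed without the lower copies of shared barcodes, and 0 with anti-PD-1.

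Ero1l had 89.0 and 99.4 CPM (not TMM-scaled, as all values by cluster below) in the collagen-high clusters of the PBS libraries, 110 with anti-PD-1 and 225 with the combination. In the collagen-low clusters it had 113 and 93.9, 90.7 and 144 CPM. The combination library was highest in both, by the wider margin in the collagen-high clusters. P4ha1 had 180 and 155, 131 and 260 CPM in the collagen-high and 140 and 142, 97.7 and 173 CPM in the collagen-low clusters. Slc2a1 had 28.9 and 21.5, 40.3 and 50.4 CPM in the collagen-high clusters and stayed at 28.8 to 36.9 CPM in the collagen-low ones, a difference of 0.82 ± 0.20 for the combination that did not pass (adjusted p = 0.108). Bnip3 had 73.3 and 61.7, 89.6 and 110 CPM in the collagen-high clusters, and 38.3 to 50.1 CPM in the collagen-low ones.

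**Figure D3:**
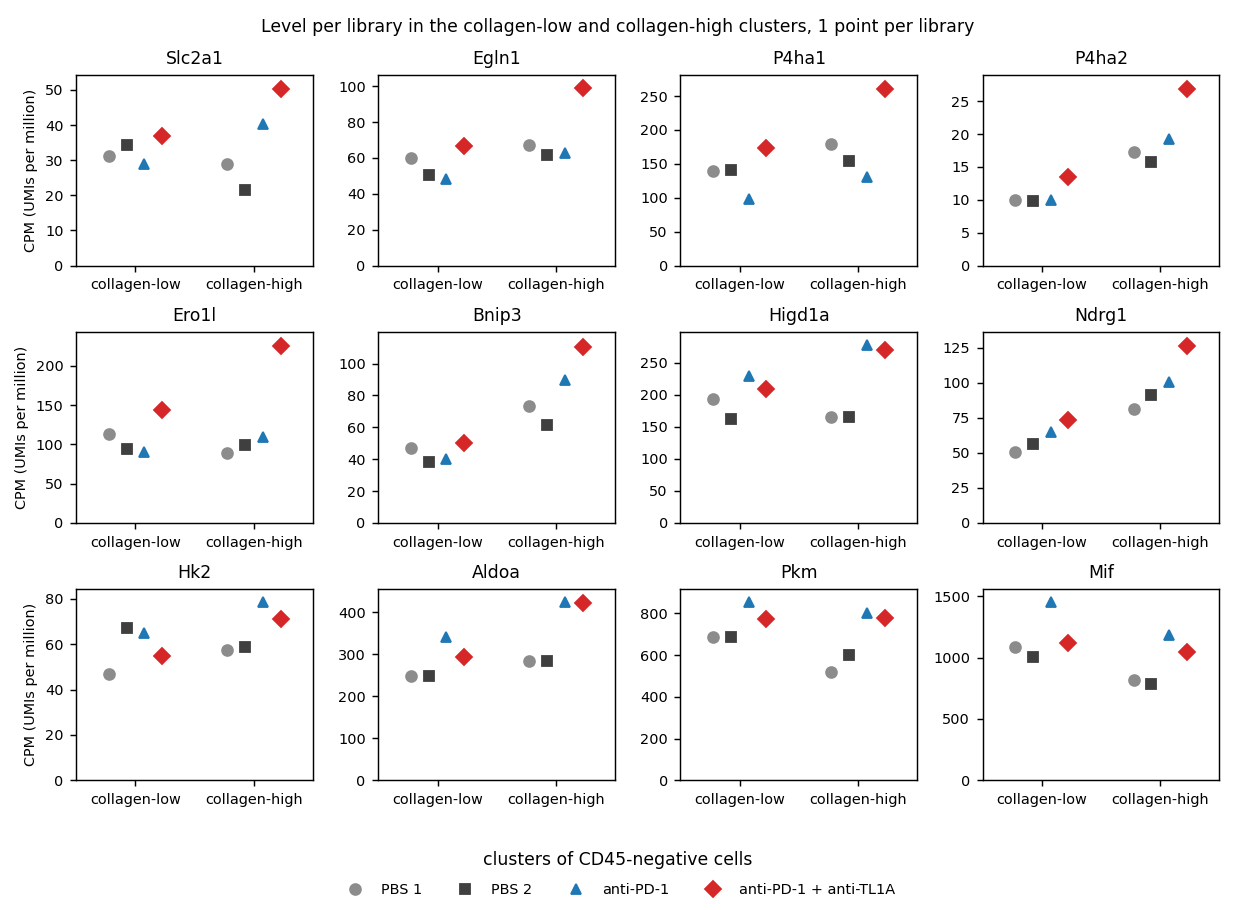
Level in CPM of 12 of the genes (panels) in the collagen-low and the collagen-high clusters of CD45-negative cells, 1 point per library. In the Ero1l panel the combination library stands at 225 CPM in the collagen-high clusters, above 89.0 to 110 CPM of the other 3.

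In monocytes and macrophages glycolytic enzymes and the lactate exporter were also higher with anti-PD-1. Every class draws on the same anti-PD-1 library, so a like change in another class is not a replicate. Of the 35 genes, 14 rose and 1 fell over PBS, 42.9% of the list beside 8.07% of all genes tested (4.59% higher and 3.48% lower). The 8 with the largest changes were Slc16a3 (0.69 ± 0.12 on the log2 scale), Pkm (0.62 ± 0.14), Mif (0.62 ± 0.13), Tpi1 (0.60 ± 0.12), Aldoa (0.60 ± 0.14), Egln3 (0.57 ± 0.19), Ndrg1 (0.57 ± 0.12) and Higd1a (0.56 ± 0.11). By role these 15 were 2 of the 3 transporters, 5 of the 9 upper and 3 of the 6 lower glycolysis genes, 1 of the 3 oxygen-sensing genes and 4 of the 12 hypoxia targets. The gene that fell was P4ha1.

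Slc16a3 had 74.7 and 74.6 CPM in the PBS libraries, 120 with anti-PD-1 and 99.4 with the combination (adjusted p = 7.23e-07 and 0.0138). Pkm had 580 and 611, 914 and 797 CPM, and Higd1a 131 and 134, 194 and 136 CPM. The anti-PD-1 library was the highest of the 4 for all 3 genes, and for Higd1a the combination library lay close to the PBS pair. P4ha1 had 118 and 95.8 CPM in the PBS libraries, 78.1 with anti-PD-1 and 127 with the combination, so that its fall over PBS (-0.45 ± 0.12, adjusted p = 0.00542) was a log2 ratio of -0.30 without the first PBS library. Pfkl, which also rose (0.42 ± 0.13), had a log2 ratio of 0.25 without the second.

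With the combination, 6 genes rose in these cells and none fell, 17.1% of the list beside 4.86% of all genes tested (2.9% higher and 1.96% lower). They were Ankrd37 (0.89 ± 0.20), an ankyrin repeat gene, Slc2a1 (0.57 ± 0.11), Ndrg1 (0.53 ± 0.12), Ero1l (0.47 ± 0.12), Hk1 (0.42 ± 0.12) and Slc16a3 (0.41 ± 0.12). Ankrd37 had 10.8 CPM in each PBS library, 12.5 with anti-PD-1 and 20.03 with the combination. Slc2a1 had 78.2 and 80.1, 103 and 118 CPM. Between the treated libraries P4ha1 was higher with the combination (0.70 ± 0.14) and Gpi1 (-0.44 ± 0.14) and Higd1a (-0.51 ± 0.13) were lower, 8.57% of the list beside 4.69% of all genes (2.36% higher and 2.32% lower). The genes that did not pass over PBS ranged from -0.96 (Slc2a3) to 2.31 (Adm) with anti-PD-1 and from -0.83 (Slc2a3) to 2.04 (Adm) with the combination.

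These counts depended on the settings. Without the filter on low counts 0 of the 35 passed in any of the 3 comparisons, and 0 of all 22509 genes with anti-PD-1. DESeq2 called 6, 0 and 0. Leaving out the lower copies of shared barcodes gave 15, 6 and 3 and kept each gene, while leaving out both copies gave 0, 0 and 0, with 1 gene called in all. That last setting was uneven: it took 12.5% and 17.8% of the cells of the PBS libraries, 1.88% with anti-PD-1 and 0.870% with the combination. The UMIs of the PBS libraries fell from 9868975 to 7149056 and from 9669255 to 6217156. The log2 fold changes of Slc16a3 without the filter were 0.67 and 0.42. T cell markers (6 genes) summed to 21.1 and 29.0 CPM in this class in the PBS libraries, 38.3 with anti-PD-1 and 57.0 with the combination. In the same order, clusters with much C1qa made up 40.5%, 33.7%, 24.2% and 27.3% of it. The median UMIs per cell were 9744 and 11324, 5708 and 7752. Ribosomal protein genes took 12.8% and 11.2%, 13.2% and 10.1% of the UMIs. The part of any of these in the result was not tested.

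One small cluster of this class, led by Mmp12, a macrophage elastase, had the highest median level of 28 of the 35 genes. It held 3.5% and 5.03% of monocytes and macrophages in the PBS libraries, 2.40% with anti-PD-1 and 3.58% with the combination, 28 to 37 cells each. Its 12 hypoxia targets summed to 2664 and 3204 CPM in the PBS libraries, 4624 with anti-PD-1 and 3106 with the combination. In the cluster led by Chil3, a monocyte chitinase-like gene, the sum was 480 to 618 CPM in the 4 libraries, so the ranges were far apart. The 2 clusters are unlike, with C1qa at 1303 CPM in the Mmp12-led and 9.75 CPM in the Chil3-led one. This contrast therefore does not tell how far the Mmp12-led cluster stands from other macrophages with much C1qa. Ero1l had 309 and 441, 617 and 477 CPM in the Mmp12-led cluster and 12.8 to 29.4 CPM in the Chil3-led one. Bnip3 had 309 and 364, 373 and 315 CPM against 7.12 to 17.9, and Egln3 67.4 and 126, 186 and 106 CPM against 0 to 4.26. Adm, which encodes the vasodilator adrenomedullin, had 36 UMIs in the whole class, and its level there was 6.52 and 4.97, 39.9 and 25.5 CPM in the Mmp12-led cluster and 0 in the Chil3-led one. The Mmp12-led cluster gave 22.6% to 36.1% of the class's UMIs of Ero1l and 24.4% to 46.3% of those of Egln3. Without it 12, 5 and 1 genes passed in the 3 comparisons, in place of 15, 6 and 3.

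**Figure D4:**
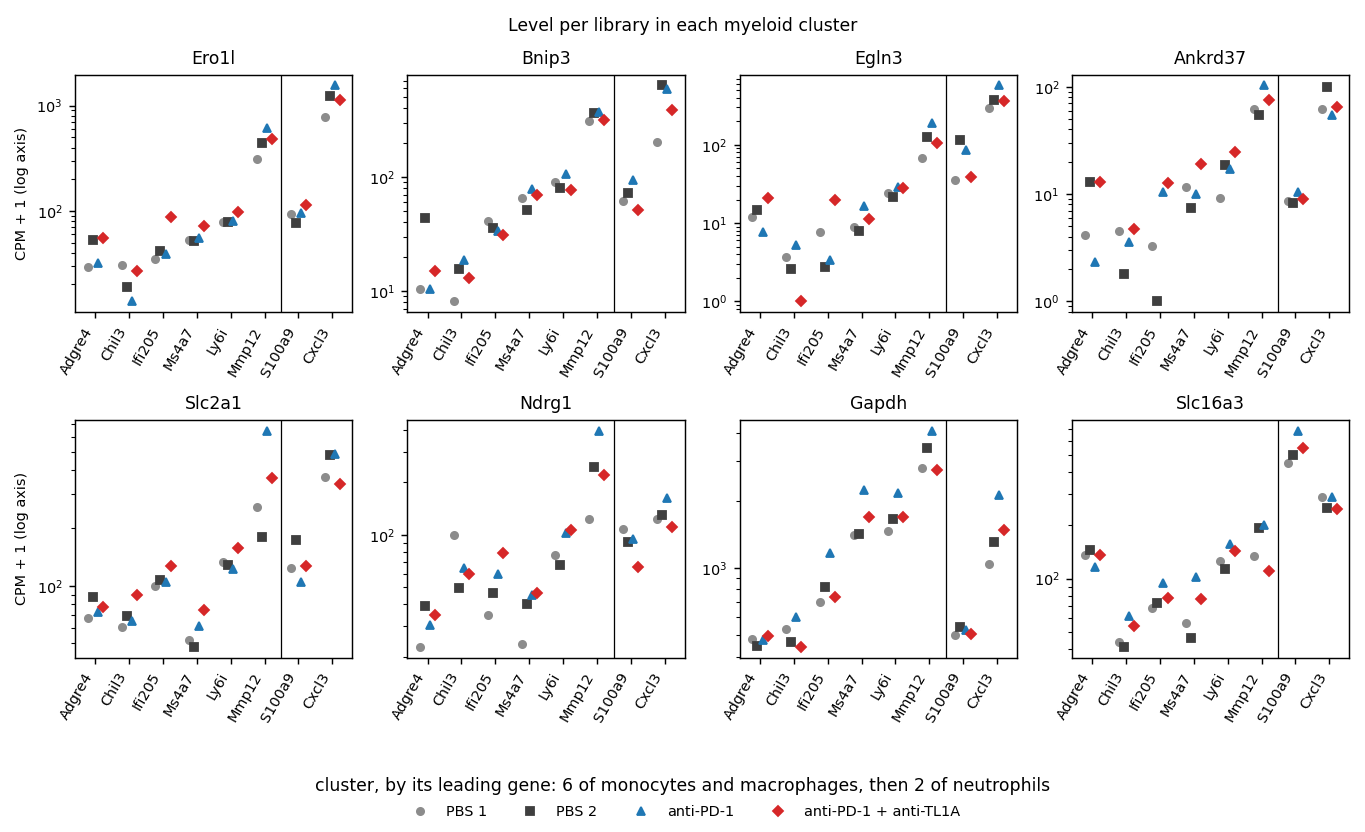
Level in CPM plus 1, on a log axis, of selected genes (panels) in 6 clusters of monocytes and macrophages and 2 of neutrophils, each named by its leading gene, 1 point per library. For Ero1l the Mmp12-led cluster (309 to 617 CPM) and the Cxcl3-led neutrophils (781 to 1560 CPM) stand above the other clusters of their class.

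Neutrophils held the highest levels of several of the genes but no difference between treatments that passed. Of the 30 genes that passed the filter, 0 were called with anti-PD-1, 0 with the combination and 0 between the treated libraries, by edgeR and by DESeq2, with 1, 3 and 4 at an unadjusted p under 0.05 in edgeR, beside 0.0361%, 0.0181% and 0.145% of all genes called. The class is small, and its biological coefficient of variation was 23.7%, against 8.55% to 9.59% in the other classes. The PBS libraries differed from each other: Hk2 had 206 CPM in the first PBS library and 527 in the second, 510 with anti-PD-1 and 192 with the combination, and Bnip3 had 106 and 404, 216 and 129. The log2 fold changes ran from -1.12 (Ankrd37) to 0.84 (Pfkl) with anti-PD-1 and from -1.10 (Pfkl) to 0.51 (Pfkfb4) with the combination. Pfkm, Aldoc, Adm, P4ha2 and Car9, with 0 to 2 UMIs each, did not pass the filter. Leaving out the lower or both copies of shared barcodes also gave 0.

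The 2 neutrophil clusters differed in these genes. The cluster led by Cxcl3, a chemokine, made up 27.4% of neutrophils in the first PBS library, 56.5% in the second, 20.3% with anti-PD-1 and 17.5% with the combination, and had a higher median level than the cluster led by S100a9, an alarmin of mature neutrophils, for 25 of the 35 genes. It had a lower one for 5, and 5 had a median of 0 in both. Ero1l had 781 and 1230, 1560 and 1130 CPM in the Cxcl3-led cluster and 75.4 to 112 CPM in the S100a9-led one. Bnip3 had 202 and 634, 592 and 386 CPM against 50.7 to 93.8, and P4ha1 228 and 464, 520 and 322 against 11.5 to 50.3. In all 3 the lowest library of the Cxcl3-led cluster stood above the highest of the other. Slc16a3 went the other way, with 248 to 290 CPM in the Cxcl3-led and 451 to 685 in the S100a9-led cluster, and Hif1a had 298 to 565 against 511 to 862 CPM. The ranges of Slc2a3 overlapped, at 179 to 377 and 178 to 232 CPM. Clusters are descriptions, and with each cluster fitted alone 0 genes passed in any comparison.

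In T cells the lactate exporter Slc16a3, the upper glycolysis enzymes Aldoa and Gpi1, and Higd1a were higher with anti-PD-1. These 4 of 33 rose and none fell, 12.1% of the list beside 1.58% of all genes tested (1.19% higher and 0.388% lower): Slc16a3 (0.98 ± 0.13, adjusted p = 0.00783), Aldoa (0.62 ± 0.12), Higd1a (0.52 ± 0.11) and Gpi1 (0.48 ± 0.10). With the combination Slc16a3 rose (0.66 ± 0.13, adjusted p = 0.0427), 3.03% of the list beside 0.825% (0.425% higher and 0.4% lower). Slc16a3 had 11.4 and 11.0 CPM in the PBS libraries, 22.2 with anti-PD-1 and 17.8 with the combination. Aldoa had 260 and 227, 373 and 301 CPM. Both treated libraries lay above the PBS pair for both genes. Between the treated libraries 0 passed by edgeR or DESeq2, with 10 at an unadjusted p under 0.05 in edgeR, beside 0.542% of all genes. Slc2a3, with 36.4 and 42.5 CPM in the PBS libraries, 43.0 and 53.8, did not pass (0.45 ± 0.11 with the combination, adjusted p = 0.109). The others that did not pass ran from -1.42 (P4ha2) to 0.55 (Aldoc) with anti-PD-1 and from -0.33 (Hk2) to 0.48 (Aldoc) with the combination, and Adm and Car9, with 14 and 20 UMIs, did not pass the filter.

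The T cell counts were not stable in either direction. Leaving out the lower copies of shared barcodes gave 3 and 0 genes, leaving out both copies 10 and 2, and no filter 9 and 2. Leaving out both copies took 5.57% and 9.30% of the T cells of the PBS libraries, 0.729% with anti-PD-1 and 0.682% with the combination. The call of Slc16a3 with the combination was lost with DESeq2 and with the lower copies left out. Markers of NK cells (7 genes) summed to 395 and 386 CPM in the T cell sums of the PBS libraries, 730 with anti-PD-1 and 672 with the combination, and 13 markers of monocytes and macrophages to 720 and 696, 810 and 825 CPM. The make-up of the class differed too: it held 2996, 2667, 4526 and 5281 cells in the same order. Of these, 475, 304, 419 and 304 lay in a CD8 cluster with Lef1 among its leading genes. A CD8 cluster led by Cxcr6 held 86, 106, 316 and 283. They are examples from the 19 clusters. The median UMIs per cell were 6935 and 8109, 4455.5 and 6587, and ribosomal protein genes took 19.4% and 16.3%, 19.9% and 15.9%. The part of any of these in the result was not tested.

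Among T cell subsets, regulatory T cells (522, 535, 914 and 903 cells) had the highest levels of Hif1a and of several targets. Hif1a had 1141 and 1225, 994 and 1174 CPM in them, against 433 to 639 in CD8 T cells, 553 to 757 in conventional CD4 T cells and 176 to 226 in other T cells. Slc16a3 had 37.1 and 30.8, 61.3 and 46.0 CPM in regulatory T cells and 8.98 to 17.3 CPM in CD8 T cells. In both subsets the 2 treated libraries stood above the PBS pair. Bnip3 had 29.5 to 49.4 CPM in regulatory T cells and 2.06 to 10.8 in the other 3 subsets, and P4ha1 94.4 to 119 against 22.4 to 56.3. Gapdh, the glyceraldehyde phosphate dehydrogenase, had 944 to 1300 CPM in CD8 T cells and 816 to 1097 in regulatory T cells, ranges that overlapped, and 338 to 549 in the other 2. The subsets were rebuilt here from clusters, and no test was made between them.

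Whether treatment changed a gene by unequal amounts in 2 classes was tested on the class sums. Of the 35 genes, 0 passed with anti-PD-1 for CD45-negative cells or for T cells against monocytes and macrophages (0 and 2 at an unadjusted p under 0.05, beside 0.0661% and 0.0441% of all genes called). With the combination 1 passed in each, beside 0.397% and 0.248%, and it was Slc2a3 both times. Its log2 fold change was larger in CD45-negative cells by 2.87 ± 0.50 (adjusted p = 0.000603) and in T cells by 1.32 ± 0.30 (adjusted p = 0.0268). It rests on few molecules: CD45-negative cells held 12 and 3 UMIs in the PBS libraries, 5 with anti-PD-1 and 51 with the combination, that is 1.48 CPM in the combination library (95% Poisson interval 1.10 to 1.95, counting error only) against 0.458 (0.236 to 0.799) and 0.232 (0.0478 to 0.677) in the PBS libraries. In monocytes and macrophages it held 70 and 85, 31 and 44 UMIs. After thinning the sums to equal depth neither difference passed, and without the lower copies of shared barcodes both did. For Aldoa the difference between CD45-negative cells and monocytes and macrophages was 0.02 with anti-PD-1 (95% interval -0.34 to 0.38), and for Ero1l with the combination 0.48 (-1.50 to 2.46), intervals that leave room for unequal changes.

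Other genes of these pathways were taken from 2 fixed lists. Of 33 further glycolysis and pyruvate genes tested in CD45-negative cells, 0 passed with anti-PD-1 and 4 with the combination, 3 higher and 1 lower, with Pdk2, a kinase that restrains pyruvate dehydrogenase, at -1.08 and Gys1, glycogen synthase, at 0.52. Of 31 further hypoxia genes 3 rose and 2 fell with anti-PD-1 and 5 rose and 1 fell with the combination, among them Nos2, the inducible nitric oxide synthase, at 1.19. In monocytes and macrophages 4 of 30 and 1 of 31 rose with anti-PD-1, with Hk3, a myeloid hexokinase, at 0.56 and Arg1, arginase, at 0.53. With the combination 1 of 30 (Hk3, 0.72) and 3 of 31 rose, the latter Ddit4 at 1.17, Hilpda at 0.65 and Cxcr4 at 0.48. In T cells 0 of 33 and 1 of 33 passed over the comparisons with PBS, the 1 being Hilpda, a lipid droplet gene, at 0.52 with the combination. In neutrophils 0 of 17 and 0 of 16 passed. Of all genes, 5.19% and 3.23% passed with anti-PD-1 and the combination in CD45-negative cells, 8.07% and 4.86% in monocytes and macrophages, and 1.58% and 0.825% in T cells, so that 1 of 30 or 1 of 31 lies near that share. Without the lower copies of shared barcodes each of these counts stayed the same but 1: in monocytes and macrophages 2 of the 31 hypoxia genes rose with anti-PD-1 in place of 1.

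From cell to cell, the genes closest to the hypoxia targets were largely other members of the list, but not every member was close. Each gene was correlated with the mean of the hypoxia targets across cells of a library, after thinning each cell to 5000 UMIs, which describes likeness and shares depth and library between all genes. In CD45-negative cells the mean Pearson correlation over the 4 libraries was 0.37 for Aldoa, 0.37 for Ero1l and 0.36 for Bnip3, against a median of -0.01 over 5402 genes. Among the closest genes outside the list were Fam162a (0.44), a hypoxia-induced mitochondrial gene, the metallothioneins Mt1 (0.33) and Mt2 (0.27), the collagen lysyl hydroxylase Plod2 (0.22), Fau, Bsg and Rbpj. In monocytes and macrophages the members Tpi1 (0.53), Gapdh (0.52) and Aldoa (0.50) were closest, and outside the list Arg1 (0.48), the ferritin gene Fth1 (0.44), Basp1 (0.40), AA467197 (0.38), Fam162a (0.35), Hilpda (0.35), Lgals3 (0.34) and Il7r (0.31), against a median of -0.01 over 5118 genes. Thinning left out 21 CD45-negative cells and 428 monocytes and macrophages of the anti-PD-1 library, and 0 to 1 and 41 to 179 in the other libraries.

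Reads of 6 of the genes may be shared with other annotated genes. The 31-base words of their last 500 transcript bases were searched for in all other annotated genes. The share found there was 94.9% for Gapdh, 84.3% for Eno1 and 61.7% for Mif. It was 23.2% for Aldoa, 16.2% for Gpi1 and 11.1% for Pgk1. The shared words of Gpi1 lay in 342 genes, led by Atp11a and Atp5g1. The labels do not say which transcript end was read, so how far these levels are uncertain is not known. In the GRCm38 annotation Ero1l lies at chr14:45283087-45318771, P4ha1 at chr10:59323296-59373304, Slc16a3 at chr11:120948480-120960868, Aldoa at chr7:126795234-126800751, Higd1a at chr9:121848563-121858362 and Slc2a3 at chr6:122727809-122801640.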

How the data were processed

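The deposited matrices hold raw UMI counts per gene and cell barcode, not normalized, and were made with Cell Ranger 7.1.0 per the file headers, while Cell Ranger 3.0.2 and the build mm10 stand in the submitters' processing notes. No source used here says if intronic reads were included. Barcodes with under 200 genes or 15% or more mitochondrial UMIs were left out. Scrublet's automatic threshold marked 0 to 3 barcodes per library and did not work, so the highest-scoring 0.8% per 1000 barcodes were removed (324 to 1364), leaving 33631 cells. Cells were clustered by the Leiden method (scanpy 1.11.5, igraph 0.11.9) without the 35 genes and 2 lists of 38 further pathway genes each. Clusters were assigned to classes by fixed markers, with marker thresholds set after the data had been seen, and low-UMI clusters were left out of the classes. Of these, 5 clusters of CD45-negative barcodes held 2000 cells, 1471 of them lower copies of barcodes shared with another library.

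UMIs were summed per library and class and fitted with edgeR 4.0.16 (R 4.3.3, TMM, filterByExpr with a minimum count of 10, robust quasi-likelihood test, Benjamini-Hochberg over all genes tested, threshold 0.05). Treatment fits have 1 residual degree of freedom, from the PBS pair, and assume that a treated library varies as the PBS libraries do. The PBS libraries were not copies of each other (chi-square per degree of freedom 48.4). SE is the log2 fold change divided by the square root of F. The fits were tested on simulated data. Intervals and floors cover counting error only. For the 35 genes in the main treatment fit of each class, every gene past the threshold is named where there are at most 8, otherwise the 8 largest. For the further lists, the levels by class and the collagen-high clusters alone, the genes named can be a part of those that passed. Alternatives were DESeq2 1.42.0, other scaling, filters, thinning, clusters and libraries left out, and, chosen after seeing the data, the clusters led by Mmp12, Ifitm6, Cxcl3 and S100a9, the test of collagen-high against collagen-low clusters, and the shared barcodes. The 35 genes and all lists and tests were chosen with earlier results of these data known.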

Additional observations from a re-analysis of the deposited data

Results flagged for a closer look

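Slc2a3 differed between classes in its response to the combination. Its log2 fold change over PBS was larger by 2.87 in CD45-negative cells and by 1.32 in T cells than in monocytes and macrophages, each by an interaction test in edgeR. Neither difference passed in thinned sums, and that of T cells did not pass with DESeq2's size factors. In CD45-negative cells the value rests on 12 and 3 UMIs in the PBS libraries, 5 with anti-PD-1 and 51 with the combination. Ero1l differed within CD45-negative cells: its log2 fold change with the combination was larger by 0.83 in collagen-high than in collagen-low clusters, by a test added after the counts in the 2 kinds of cluster had been seen. All 3 rest on 1 combination library.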

How the results depend on the processing

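In CD45-negative cells 8, 8 and 3 genes passed with anti-PD-1, with the combination and between the treated libraries. DESeq2 called 1 for the combination, no filter on low counts 5 for anti-PD-1, collagen-low clusters alone 0, 0 and 0, and collagen-high clusters alone 13 and 14 over PBS, with or without the lower copies of shared barcodes. In monocytes and macrophages 15, 6 and 3 passed in the same order; DESeq2 called 6, 0 and 0, no filter 0, 0 and 0, low-UMI clusters kept 7, 2 and 1, C1qa-high clusters alone 8, 1 and 0, C1qa-low clusters alone 3, 0 and 1, and both copies of shared barcodes left out 0, 0 and 0. Without the Mmp12-led cluster 1 passed between the treated libraries. In T cells 4, 1 and 0 passed; no filter gave 9, 2 and 1, and both copies left out 10 and 2 over PBS. The 1 call for the combination went to 0 with DESeq2, thinned sums, low-UMI clusters kept, clusters built with the genes left in, and the lower copies of shared barcodes left out. Fewer or more genes tested is part of the no-filter setting; otherwise the cause was not tested.

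Of the differences between classes with the combination, that of CD45-negative cells went from 1 gene to 0 in thinned sums, and that of T cells from 1 to 0 with DESeq2's size factors in edgeR and in thinned sums. For levels by class, leaving out each library in turn gave 21 to 28 genes in CD45-negative cells, 17 to 22 in neutrophils and 26 to 30 in T cells, beside 25, 20 and 29, and thinning gave 14 in CD45-negative cells. Those fits have the library as a block; with no replicate block 20, 22 and 27 passed. Ndrg1 in CD45-negative cells turned to -0.012 in thinned sums and Pkm in neutrophils to -0.083 with no replicate block. No paired analysis was possible for the treatment comparisons because each treated group is 1 library. Without either PBS library no residual degree of freedom remains, so those settings gave log2 ratios with no test. For CD45-negative cells both copies of shared barcodes could not be left out, since 2 cells would remain in each PBS library. Neutrophils, with 641 cells, allow the least.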
